A study of Mus musculus with 19 samples.

Results

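The transcripts described here are those of 8 genes of the epidermal growth factor system: the ligands Egf, Hbegf, Areg and Tgfa, and the receptors Egfr, Erbb2, Erbb3 and Erbb4. They were chosen by name, and all 8 were among the 19287 entries of the expression table, matched by their gene IDs (13645, 15200, 11839, 21802, 13649, 13866, 13867 and 13869, in the order given). The 19 libraries hold kidney RNA of male mice of the inbred strain C57BL/6: 5 of sham-operated mice (sham), 5 after ischemia-reperfusion (IR, in which blood flow to the kidney is stopped and then restored), 5 labelled IRLac and 4 labelled IRLacz. In the IRLac and IRLacz groups a Lactobacillus was given by gavage over 4 weeks ahead of the operation; day 5 after injury was the day of sampling. IRLacz carries the study's abbreviation for L. casei Zhang. IRLac was taken as L. acidophilus by elimination. No gavage is stated for sham or IR, and neither the mice's ages nor whether each library is its own mouse is given, so p-values measure the spread between these libraries.

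Ligands of this family are made as membrane-anchored precursors that proteases cut free. They bind Egfr or Erbb4, and the bound receptors pair with one another or with Erbb2, which has no known ligand of its own, or with Erbb3, whose kinase is weak and which signals through its partners. The paired receptors pass the signal to the Ras-MAPK and PI3K-Akt cascades, which induce immediate-early genes and also inhibitors that limit the signal. In the kidney, Egf is known as a product of the thick ascending limb and the distal convoluted tubule, is shed into urine, and is known to fall in many kinds of kidney injury, whereas Hbegf and Areg are known as ligands induced by tissue damage.

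The regions just upstream of Egf and Areg are shown because these ligands moved in opposite directions after injury and their upstream sequences differ in composition. Each is the 250 bases before the RefSeq start of the gene (assembly GRCm38.p6), written 5′ to 3′ on the gene's own strand. Capitals mark matches, on either strand, to 4 short motifs: the cyclic AMP response element TGACGTCA, the AP-1 element TGACTCA, the TATA element TATAAA and the GC box GGGCGG. These letters do not overlap in either window.
Egf upstream region, chr3:129755323-129755572, minus strand: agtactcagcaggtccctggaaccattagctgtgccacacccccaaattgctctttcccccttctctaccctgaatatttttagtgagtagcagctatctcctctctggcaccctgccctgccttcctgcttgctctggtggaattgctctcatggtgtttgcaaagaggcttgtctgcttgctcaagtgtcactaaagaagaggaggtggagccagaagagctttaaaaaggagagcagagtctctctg
Areg upstream region, chr5:91139349-91139598, plus strand: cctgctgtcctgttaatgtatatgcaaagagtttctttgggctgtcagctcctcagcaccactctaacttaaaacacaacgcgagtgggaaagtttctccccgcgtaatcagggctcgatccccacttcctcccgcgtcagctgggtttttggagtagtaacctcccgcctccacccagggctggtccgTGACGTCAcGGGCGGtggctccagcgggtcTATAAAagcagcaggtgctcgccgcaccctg
The Egf window had a GC content of 50.4%, held 0 CpG and matched none of the 4 motifs. The Areg window had a GC content of 57.2% and held 15 CpG. It held a cyclic AMP response element starting 61 bases upstream of the gene start, a GC box at 52 bases and a TATA element at 31 bases, and no AP-1 match. Over 27025 mouse windows of the same length, 1.6% held the cyclic AMP response element, 4.43% the AP-1 element, 13.0% the TATA element and 33.0% the GC box. Windows were searched for 6 of the 8 genes, leaving out Hbegf and Erbb3. Of the others searched, Tgfa held 2 GC boxes, Egfr held 1, and Erbb2 and Erbb4 held none of the motifs. A match is only a description of the letters.

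Values are the authors' FPKM, fragments scaled by gene length and by library, so levels of different genes can be set side by side; the read depth is unknown. Differences are on the scale of log2(FPKM + 1), which understates changes of genes with low values. They were tested with limma in 1 model over all 19 libraries, with p-values adjusted by the Benjamini-Hochberg method over the 13594 entries that reached 1 FPKM in 4 or more libraries. All 8 genes passed this filter, and an entry is called when its adjusted p was under 0.05. Injury moved a large part of the whole table: in IR against sham, 7747 entries were called higher and 2529 lower, and the median over all tested entries was 0.29. Under median-ratio scaling, which sets that median to 0.00375, 4764 were called higher and 4794 lower, and under quantile scaling 4354 and 5200. For the 8 members, IR against sham is therefore given on both the deposited and the median-ratio scale. Other comparisons with sham are on the deposited scale unless another is named. Kidney marker genes were present: of the 8 proximal tubule, 6 thick limb and 8 collecting duct markers, none was at 0 throughout a group.

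After injury, Egf fell and Hbegf and Areg rose, and among the receptors Erbb3 fell, each under both scalings. Tgfa and Egfr rose on the deposited scale and under TPM scaling, but were not called under median-ratio or quantile scaling. In the IRLacz group, Hbegf and Egfr were lower and Erbb3 was higher than in IR. No member was called between IRLac and IR. IR against sham and the comparisons with IR share the IR libraries. Opposite differences in them, here and for the genes below, are therefore not independent. The plot of FPKM by library shows all 8 genes.

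**Figure D1:**
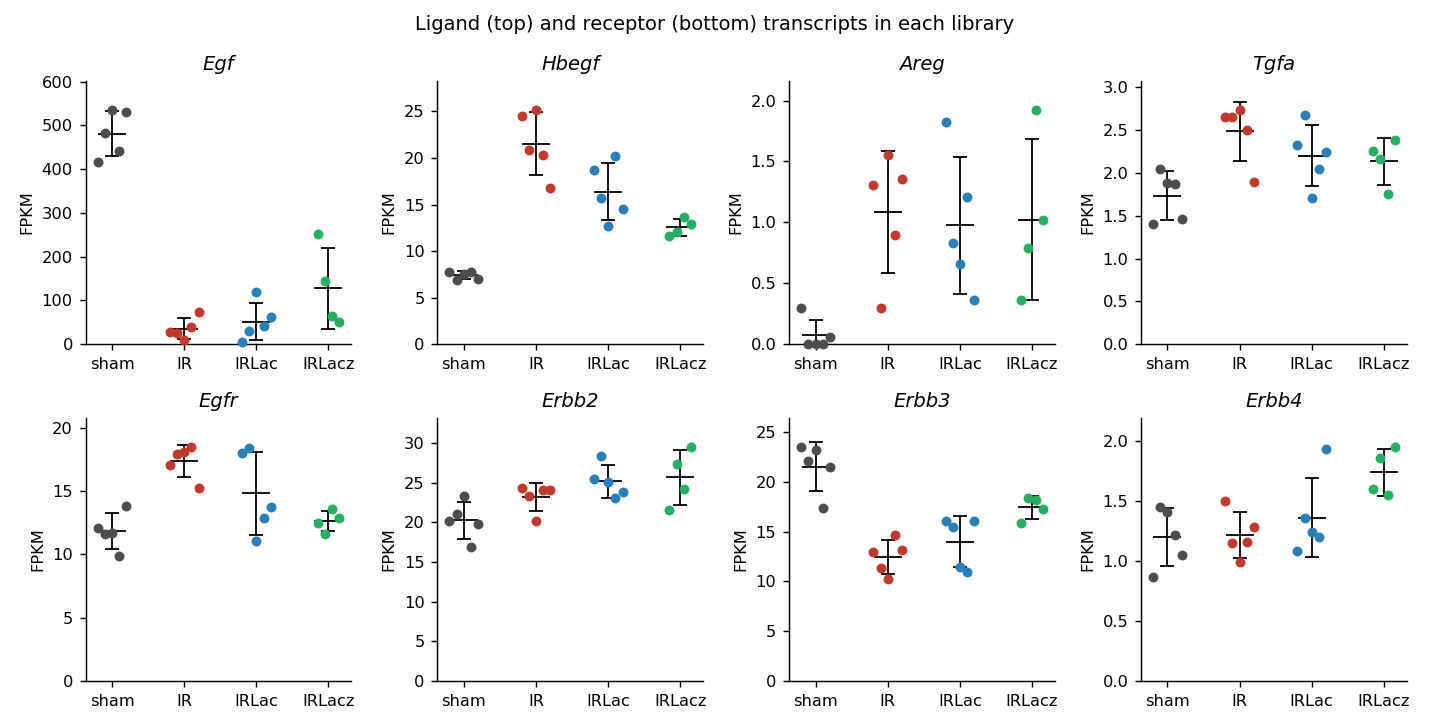
FPKM (y axes, linear, from 0) of the 4 ligands (top row) and 4 receptors (bottom row) in each library, by group on the x axes (sham n = 5, IR n = 5, IRLac n = 5, IRLacz n = 4). Points are libraries and black bars are the mean ± SD. Egf is at least 417.29 in every sham library and at most 252.26 in every injured one, and Hbegf is at most 7.79 in every sham library and at least 11.67 in every injured one.

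Egf was the most abundant of the 4 ligands. The 5 sham libraries had 417.29, 482.55, 534.53, 441.71 and 531.17 FPKM, and the IR libraries had 26.84, 26.38, 10.46, 39.53 and 73.81. The highest IR library thus lay far below the lowest sham library. The group mean was 481.4 ± 52.4 FPKM (SD, n = 5) in sham and 35.4 ± 23.8 (SD, n = 5) in IR, 13.6-fold lower, which is -3.98 on the log2 scale (SE 0.60; limma, adjusted p = 1.04e-05) on the deposited scale and -4.32 (limma, adjusted p = 6.22e-06) under median-ratio scaling. In kidney tissue taken whole, fewer cells of a type and less RNA per cell cannot be told apart.

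Relative to the group mean, the SD of Egf was larger in each injured group than in sham. The IRLac libraries had 6.06, 30.78, 118.5, 41.55 and 62.48 FPKM and spanned the IR range on both sides, with a mean of 51.87 ± 42.4 (SD, n = 5) 0.29 from IR on the log2 scale (SE 0.60; limma, adjusted p = 0.996). Without IRLac replicate 3, the highest of them, that difference was -0.129. The IRLacz libraries had 252.26, 143.81, 64.53 and 49.91 FPKM: 2 lay above every IR library and 2 within the IR range. Their mean of 127.6 ± 92.8 (SD, n = 4) was 3.6-fold that of IR, which is 1.78 on the log2 scale (SE 0.64) and missed the threshold (limma, adjusted p = 0.0698). It passed without IR replicate 5 (2.11, limma, adjusted p = 0.0351) or without IRLacz replicate 4 (2.13, limma, adjusted p = 0.0417). Against sham, the highest IRLacz library still lay below the lowest sham library, and the groups differed by -2.19 (SE 0.64; limma, adjusted p = 0.0054).

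The segments that are known to make Egf also lost marker transcripts, so Egf was set against a gene of each segment in the same library. Umod encodes uromodulin, the main secreted protein of the thick ascending limb, and Slc12a3 encodes the thiazide-sensitive sodium chloride cotransporter of the distal convoluted tubule. Umod had 1749 ± 273 FPKM in sham and 1194 ± 225 in IR (SD, n = 5 each), which overlapped (log2 difference -0.56; limma, adjusted p = 0.0616). Under median-ratio scaling the Umod difference was -0.90 and called (limma, adjusted p = 0.00665). Slc12a3 fell from 221 ± 26.4 to 97.48 ± 36.1 FPKM (SD, n = 5 each; log2 difference -1.24, limma, adjusted p = 0.000212), with no overlap.

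Egf lost more than either gene, but not clearly more than every marker of these segments. Pvalb, also on the distal convoluted tubule list, went from 33.53 ± 2.74 to 1.87 ± 2.45 FPKM (SD, n = 5 each). Its log2 difference was -3.90 (limma, adjusted p = 1.68e-06), near that of Egf. The other markers of both lists fell less, and Cldn16 and Trpv5 did not fall on the deposited scale. Cldn16 was at 0.21 and not called (limma, adjusted p = 0.119), and at -0.10 under median-ratio scaling. Trpv5 was at 0.65 (limma, adjusted p = 0.00212), but at 0.35 and not called under median-ratio scaling (limma, adjusted p = 0.0542). On the log2 scale, Egf minus Umod averaged -1.85 ± 0.15 in sham, -5.27 ± 0.74 in IR, -5.12 ± 0.85 in IRLac (SD, n = 5 each) and -4.05 ± 0.77 in IRLacz (SD, n = 4). The IR and sham values did not overlap and differed by -3.42 (two-sided exact permutation test, p = 0.00794, the smallest that 5 against 5 libraries allow; adjusted over 12 such tests, 0.0238). Egf minus Slc12a3 averaged 1.12 ± 0.19 in sham and -1.61 ± 0.48 in IR (SD, n = 5 each), a difference of -2.74 (exact permutation p = 0.00794, adjusted p = 0.0238). Both ratios were also lower in IRLacz than in sham, with differences of -2.20 for Umod and -1.89 for Slc12a3 (exact permutation p = 0.0159, adjusted p = 0.0317 for each, again without overlap).

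Between the injured groups these ratios did not pass. IRLacz minus IR was 1.21 for Egf over Umod (exact permutation p = 0.0635, adjusted p = 0.109) and 0.85 for Egf over Slc12a3 (exact permutation p = 0.127, adjusted p = 0.169), and IRLac minus IR was 0.14 and 0.04 (exact permutation p = 0.762 and 0.968, adjusted p = 0.831 and 0.968). Slc12a3 itself was higher in IRLacz, at 179.4 ± 30.4 FPKM (SD, n = 4), than in IR (log2 difference 0.93; limma, adjusted p = 0.0288), although the groups overlapped and it was called in 4 of the 9 fits that left out a library. Umod in IRLacz, 1777 ± 397 FPKM (SD, n = 4), did not overlap with IR but was not called (log2 difference 0.57; limma, adjusted p = 0.172).

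**Figure D2:**
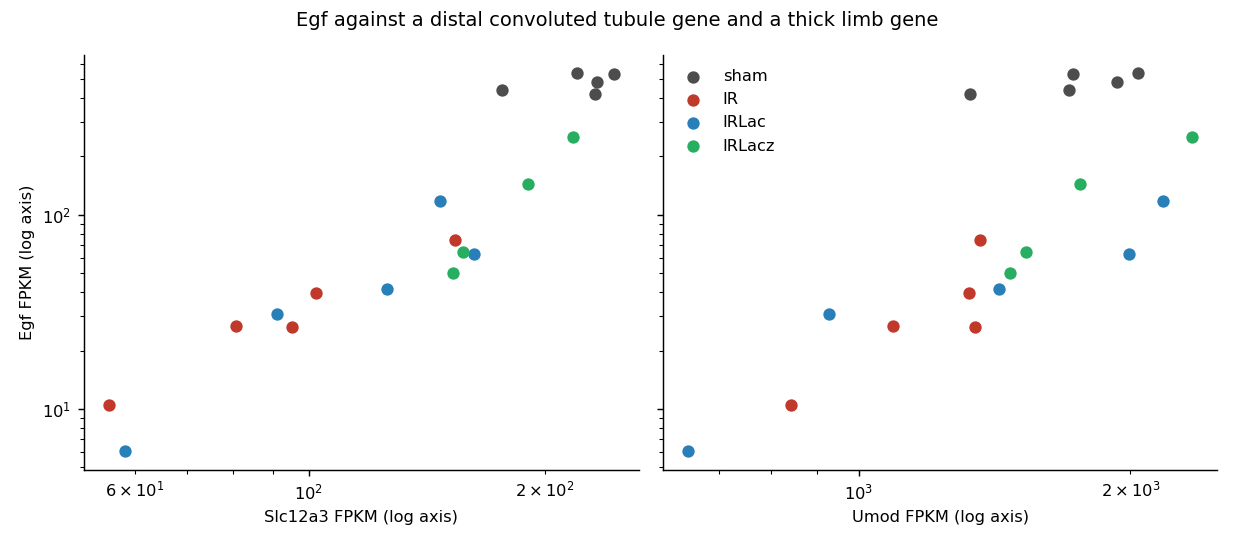
Egf FPKM (y axis, log) against Slc12a3 FPKM (left x axis, log) and Umod FPKM (right x axis, log); each point is a library, coloured by group (sham n = 5, IR n = 5, IRLac n = 5, IRLacz n = 4). At like levels of Slc12a3 or Umod, the sham libraries have more Egf than the injured ones.

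Hbegf encodes heparin-binding EGF-like growth factor, which can bind both Egfr and Erbb4. It had 7.74, 6.91, 7.58, 7.79 and 6.99 FPKM in the sham libraries and 24.53, 20.9, 25.13, 20.37 and 16.83 in the IR libraries, with a wide gap between the groups. The mean was 7.40 ± 0.42 in sham and 21.55 ± 3.38 in IR (SD, n = 5 each), 2.91-fold higher (log2 difference 1.41, SE 0.11; limma, adjusted p = 4.98e-09). Under median-ratio scaling the difference was 1.10 (limma, adjusted p = 6.9e-08).

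The IRLacz libraries had 11.67, 12.02, 13.64 and 12.93 FPKM of Hbegf, a narrow range that lay above every sham library and below every IR library. Hbegf was 1.72-fold lower in IRLacz than in IR (12.56 ± 0.89 FPKM, SD, n = 4; log2 difference -0.72, SE 0.12; limma, adjusted p = 0.00487), and it was called in all 9 fits that left out a library. The IRLac libraries had 18.72, 15.68, 12.7, 20.18 and 14.52 FPKM and overlapped with both IR and IRLacz. Their log2 difference from IR, -0.38 (SE 0.11), was not called (limma, adjusted p = 0.373), except without IR replicate 5 (-0.463; limma, adjusted p = 0.047). IRLacz minus IRLac was -0.34 (SE 0.12; limma, adjusted p = 0.185), and -0.42 without IRLac replicate 3 (limma, adjusted p = 0.0462).

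Areg encodes amphiregulin, a ligand of Egfr. It was the least abundant ligand by mean in every group. In the sham libraries it was listed at 0.3, 0, 0, 0 and 0.06 FPKM, so no fold is given against sham. The IR libraries had 1.31, 0.3, 1.55, 0.9 and 1.36 FPKM, of which 1 equalled the highest sham value. The log2 difference was 0.93 (SE 0.22; limma, adjusted p = 0.000827), and 0.87 under median-ratio scaling (limma, adjusted p = 0.00126).

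Areg was as scattered in the gavaged groups. The IRLac libraries had 1.82, 0.83, 0.66, 1.21 and 0.36 FPKM and the IRLacz libraries 0.36, 0.79, 1.92 and 1.02, all above every sham library. Differences from IR were -0.08 for IRLac (SE 0.22; limma, adjusted p = 0.997) and -0.06 for IRLacz (SE 0.23; limma, adjusted p = 0.884). The latter changed sign without IR replicate 3 (0.0232) or without IRLacz replicate 1 (0.113).

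Tgfa encodes transforming growth factor alpha, another Egfr ligand. It ranged from 1.4 to 2.05 FPKM in sham and from 1.89 to 2.73 in IR, which overlap. Tgfa rose by 0.35 (SE 0.10; limma, adjusted p = 0.00383) on the deposited scale, but was at 0.12 under median-ratio scaling (limma, adjusted p = 0.259) and turned to -0.188 under quantile scaling (limma, adjusted p = 0.101). It ranged from 1.71 to 2.67 FPKM in IRLac and from 1.75 to 2.38 in IRLacz, and neither group was called against IR (limma, adjusted p = 0.974 and 0.34).

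The mix of ligand transcripts shifted with these changes. The 4 ligands summed to a mean of 491 FPKM in sham and 60.5 in IR. Egf made up 97.8 to 98.4% of that sum in the sham libraries, 26.2 to 78.6% in IR, 20.9 to 88.7% in IRLac and 75.3 to 94.6% in IRLacz. Hbegf took 1.3 to 1.81% in sham, 17.9 to 63.0% in IR, 9.51 to 64.7% in IRLac and 4.38 to 19.5% in IRLacz. In IR replicate 3 and IRLac replicate 1, Hbegf outweighed Egf. These shares do not change with the scaling of a library, and were not tested.

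**Figure D3:**
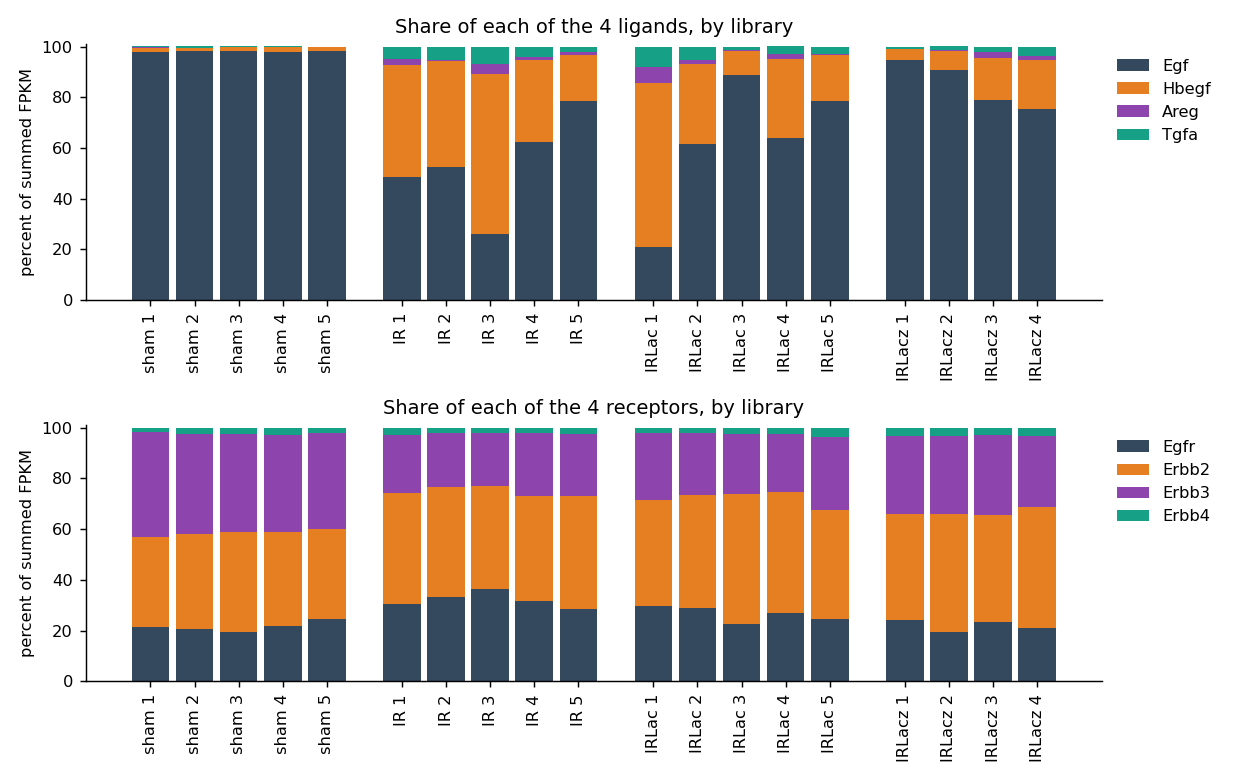
Share (y axes, percent of summed FPKM) of each ligand among the 4 ligands (top) and of each receptor among the 4 receptors (bottom), with a stacked bar for each library, ordered by group on the x axis. Egf fills 97.8 to 98.4% of the ligand bars in sham and 26.2 to 78.6% in IR, and the Erbb3 part of the receptor bars is 38.2 to 41.5% in sham and 20.8 to 25.1% in IR.

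Among the receptors, Erbb3 fell. It had 23.49, 22.05, 23.18, 17.39 and 21.46 FPKM in the sham libraries and 12.91, 11.34, 10.27, 14.66 and 13.16 in the IR libraries, with no overlap. The mean went from 21.51 ± 2.45 to 12.47 ± 1.7 FPKM (SD, n = 5 each), 1.73-fold lower (log2 difference -0.74, SE 0.11; limma, adjusted p = 1.18e-05). Under median-ratio scaling the difference was -1.07 (limma, adjusted p = 1.86e-07).

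In the IRLacz libraries Erbb3 had 15.84, 18.38, 18.18 and 17.27 FPKM, all above every IR library. The mean of 17.42 ± 1.16 (SD, n = 4) was 1.40-fold that of IR (log2 difference 0.46, SE 0.12; limma, adjusted p = 0.0214). The call was lost without IR replicate 2 (0.43; limma, adjusted p = 0.0544), IR replicate 3 (0.40; limma, adjusted p = 0.0665) or IRLacz replicate 2 (0.43; limma, adjusted p = 0.0635). The IRLac libraries had 16.07, 15.44, 11.47, 10.91 and 16.07 FPKM, 3 of them above and 2 within the IR range, and were not called (log2 difference 0.15, SE 0.11; limma, adjusted p = 0.974). Erbb3 in IRLacz minus IRLac was 0.31 (SE 0.12; limma, adjusted p = 0.225).

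Egfr, the receptor for all 4 ligands, had 12.11, 11.62, 11.65, 9.84 and 13.83 FPKM in the sham libraries and 17.07, 17.93, 18.1, 18.48 and 15.25 in the IR libraries. The groups did not overlap, and Egfr was 1.47-fold higher in IR (11.81 ± 1.42 and 17.37 ± 1.29 FPKM, SD, n = 5 each). It rose by 0.52 (SE 0.11; limma, adjusted p = 0.000392) on the deposited scale, but was not called under median-ratio scaling (0.20; limma, adjusted p = 0.118) or quantile scaling (limma, adjusted p = 0.13).

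Egfr in the IRLacz libraries, at 12.49, 11.61, 13.56 and 12.9 FPKM, lay within the sham range and below every IR library. It was 1.37-fold lower than in IR (12.64 ± 0.82 FPKM, SD, n = 4; log2 difference -0.43, SE 0.12; limma, adjusted p = 0.0269), and likewise under median-ratio scaling (-0.43; limma, adjusted p = 0.023). The call was lost without IR replicate 2 (limma, adjusted p = 0.0603), IR replicate 3 (limma, adjusted p = 0.0691), IRLacz replicate 1 (limma, adjusted p = 0.0559) or IRLacz replicate 2 (limma, adjusted p = 0.0802). The IRLac libraries split, with 18.02 and 18.4 FPKM in replicates 1 and 2 and 11.03, 12.88 and 13.72 in replicates 3 to 5, and were not called against IR (log2 difference -0.24, SE 0.11; limma, adjusted p = 0.86).

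Erbb2, the preferred partner of the other receptors, had 16.91 to 23.34 FPKM in sham, 20.1 to 24.3 in IR, 23.03 to 28.4 in IRLac and 21.58 to 29.49 in IRLacz. In IR against sham it was not called (0.19, SE 0.09; limma, adjusted p = 0.0607), and was at -0.14 under median-ratio scaling (limma, adjusted p = 0.14). The deposited-scale difference passed without IR replicate 3 (0.24; limma, adjusted p = 0.0253) or sham replicate 3 (0.24; limma, adjusted p = 0.023). Erbb4, which binds neuregulins and some EGF ligands, was the least abundant receptor, with 0.87 to 1.45 FPKM in sham, 0.99 to 1.5 in IR, 1.08 to 1.93 in IRLac and 1.55 to 1.95 in IRLacz. Every IRLacz library lay above every IR and sham library, but the difference from IR was not called (0.31, SE 0.11; limma, adjusted p = 0.0662). Against sham, Erbb4 in IRLacz was called higher on the deposited scale (0.32; limma, adjusted p = 0.0135). Under median-ratio scaling that difference was 0.12 and not called (limma, adjusted p = 0.326). In IR against sham, Erbb4 was at 0.01 (limma, adjusted p = 0.91) on the deposited scale and at -0.49 (limma, adjusted p = 6.49e-05) under quantile scaling.

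The order of the receptors by level differed between groups. In sham it was Erbb3, Erbb2, Egfr and Erbb4, where Erbb3 and Erbb2 overlapped. In IR it was Erbb2, Egfr, Erbb3 and Erbb4, with no overlap between neighbours. The IRLac order was the same, with Egfr and Erbb3 overlapping. In IRLacz it was Erbb2, Erbb3, Egfr and Erbb4, again with no overlap. Egfr and Erbb3 thus traded places between sham and IR and stood, relative to each other, in the sham order in IRLacz.

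The receptor shares show the same exchange free of library scaling. Egfr made up 19.6 to 24.6% of the receptor sum in sham, 28.4 to 36.6% in IR, 22.6 to 29.7% in IRLac and 19.6 to 24.2% in IRLacz. Erbb3 made up 38.2 to 41.5% in sham, 20.8 to 25.1% in IR, 22.7 to 28.9% in IRLac and 28.0 to 31.6% in IRLacz. For Erbb3 the IRLacz libraries lay between sham and IR without touching either. The sum itself had means of 54.8 FPKM in sham, 54.2 in IR, 55.3 in IRLac and 57.4 in IRLacz. Among the ligands, Egf, Hbegf, Tgfa and Areg kept this order by mean in all 4 groups, with Egf and Hbegf overlapping in IR and IRLac, and Tgfa and Areg in IRLac and IRLacz.

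Counted against the whole table, these calls were no more frequent than those of other entries after injury. In IR against sham, 4 of the 8 members were called higher and 2 lower, where 75.6% of all tested entries were called in either direction (57% higher and 18.6% lower). Under median-ratio scaling 2 were called higher and 2 lower. In IRLacz against IR, 1 was called higher and 2 lower, where 13.3% of entries were called (5.39% higher and 7.92% lower). Leaving out a library in turn gave between 1 and 4 called members: 1 (Hbegf) without IR replicate 2, IR replicate 3 or IRLacz replicate 2, 2 without IRLacz replicate 1, and 4, with Egf added, without IR replicate 5 or IRLacz replicate 4. In IRLac against IR no member was called, where 0.00736% of entries (1 entry) were called by limma and 786 had an unadjusted p under 0.05. In IRLacz against IRLac no member was called, where 0.0221% (3 entries; 0.00736% higher and 0.0147% lower) were called by limma and 2171 had an unadjusted p under 0.05. These misses do not show that the gavaged groups were alike.

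**Figure D4:**
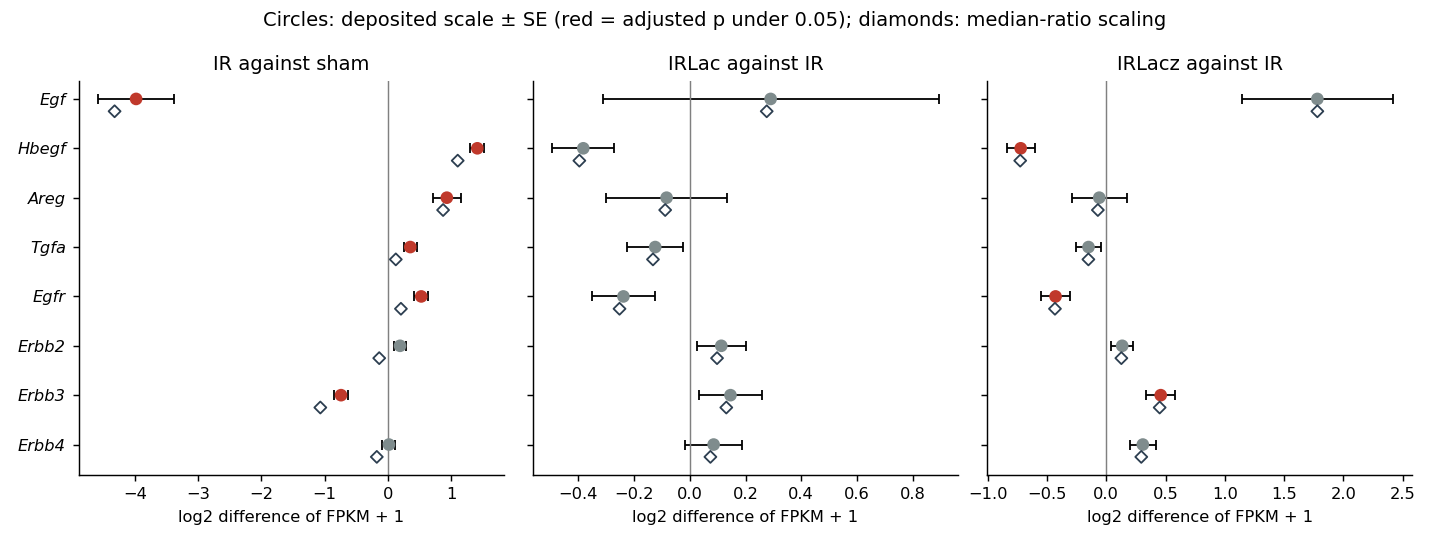
Log2 difference of FPKM + 1 (x axes) for each of the 8 genes (y axis) in IR against sham, IRLac against IR and IRLacz against IR; the x ranges differ between panels. Circles are the deposited scale with bars of ± SE, red where the limma adjusted p is under 0.05, and diamonds are median-ratio scaling. Diamonds lie to the left of the circles in IR against sham, where Tgfa and Egfr come near 0, and close to them in the other panels.

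The comparisons of the gavaged groups with sham use the same sham libraries, so their values stand side by side with those of IR and are not independent of them. In IRLac against sham, 5 members were called higher and 2 lower (74.8% of entries called, 58% higher and 16.8% lower), and in IRLacz against sham 4 and 2 (70.3% called, 56.9% higher and 13.5% lower). Hbegf was above sham by 1.41 in IR, 1.03 in IRLac (limma, adjusted p = 2.49e-07) and 0.69 in IRLacz (limma, adjusted p = 5.98e-05), and by 1.10, 0.70 and 0.37 under median-ratio scaling. Erbb3 differed from sham by -0.74, -0.60 (limma, adjusted p = 0.000128) and -0.28 (limma, adjusted p = 0.0432).

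The last of these calls was weak on the deposited scale. It was kept in 1 of 9 fits, the one without sham replicate 4, and otherwise lost, with adjusted p (limma) from 0.0512 without IRLacz replicate 2 to 0.106 without IRLacz replicate 1. Under median-ratio scaling the IRLacz difference of Erbb3 from sham was -0.62 (limma, adjusted p = 0.000208). Egfr was above sham by 0.29 in IRLac (limma, adjusted p = 0.0287) and 0.10 in IRLacz (limma, adjusted p = 0.482), but at -0.05 and -0.23 under median-ratio scaling, neither of them called (limma, adjusted p = 0.721 and 0.104). The Egfr call in IRLac was lost without IRLac replicate 1, IRLac replicate 2 or sham replicate 4 (limma, adjusted p = 0.0926, 0.0977 and 0.0852). Tgfa was above sham by 0.23 in IRLac (limma, adjusted p = 0.0464), a call lost in 6 of 10 fits that left out a library, all but those without IRLac replicate 3 or sham replicate 2, 3 or 4. Erbb2 was called higher in both gavaged groups on the deposited scale (0.30 and 0.32; limma, adjusted p = 0.005 and 0.00531), and was at -0.04 and -0.01 under median-ratio scaling.

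Other genes of the pathway were taken from lists grouped by role. Of 76 tested, 52 were higher and 7 lower in IR against sham, 77.6% called where 75.6% of all entries were, with a median of 0.59 beside 0.29 over all entries, and under median-ratio scaling 40 and 22. In IRLacz against IR, 3 were higher and 21 lower, 31.6% called where 13.3% of all entries were, with a median of -0.14 beside -0.00408 over all entries. No pathway gene was called in IRLac against IR or in IRLacz against IRLac. These lists and the marker lists below were chosen with earlier results of these data known. Their shares beside those of all entries are therefore a description. The plot of pathway differences shows 3 of the lists.

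**Figure D5:**
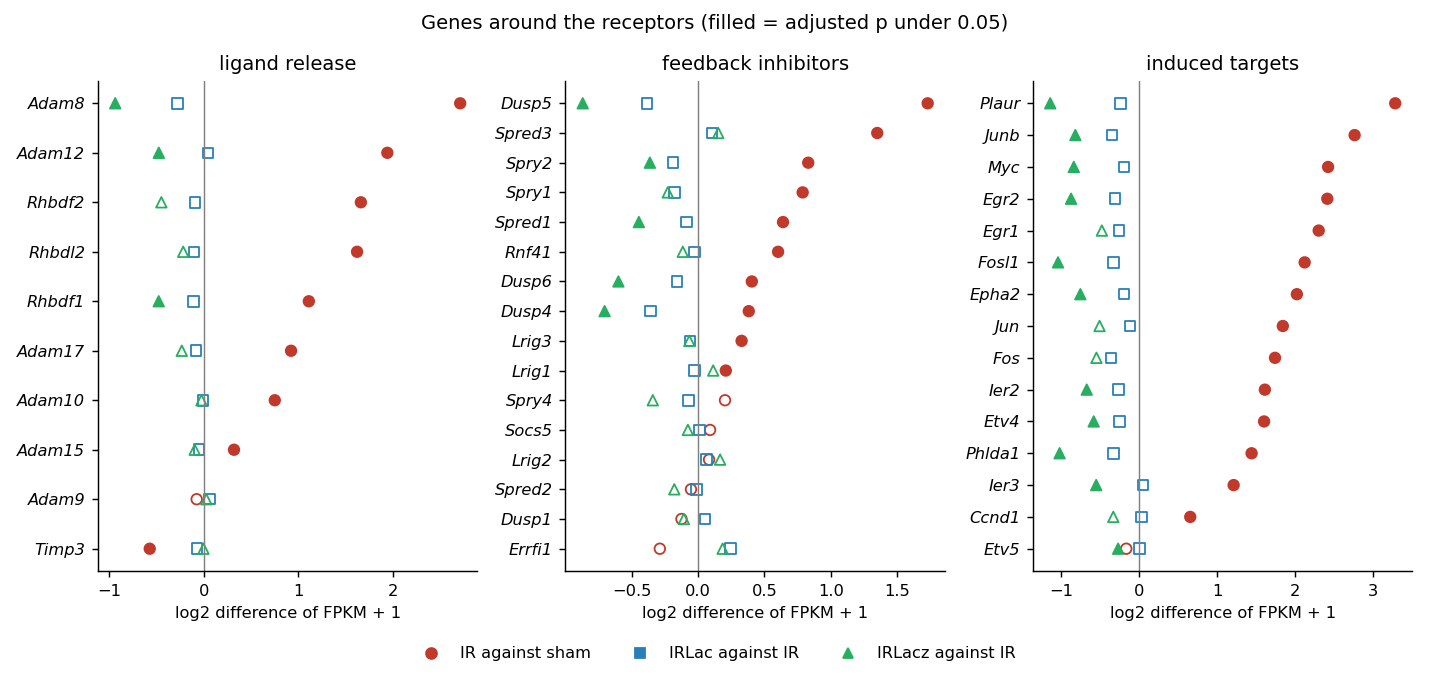
Log2 difference of FPKM + 1 (x axes) for genes of ligand release, feedback inhibitors and induced targets (y axes), in IR against sham (red circles), IRLac against IR (blue squares) and IRLacz against IR (green triangles); filled symbols have a limma adjusted p under 0.05. Among induced targets, 14 of 15 red circles are filled on the right and 11 of 15 green triangles are filled on the left.

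Of the remaining ligands of the family, 3 passed the filter, Btc, Nrg1 and Nrg4. Nrg1, the neuregulin that binds Erbb3 and Erbb4, rose from 3.60 ± 1.03 FPKM in sham to 12.63 ± 2.9 in IR (SD, n = 5 each; log2 difference 1.57, SE 0.20; limma, adjusted p = 1.68e-06). It was lower in IRLacz, at 5.57 ± 1.88 FPKM (SD, n = 4), with no overlap with IR (-1.07, SE 0.21; limma, adjusted p = 0.00727), and was called in all 9 fits that left out a library. Nrg1 was at 8.42 ± 1.89 FPKM in IRLac (SD, n = 5). Nrg4, an Erbb4 ligand, fell from 1.62 ± 0.24 to 1.04 ± 0.19 FPKM (SD, n = 5 each; -0.36; limma, adjusted p = 0.00147).

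Btc encodes betacellulin, which binds Egfr and Erbb4. It had 2.08 ± 0.37 FPKM in IR (SD, n = 5) and was higher in IRLacz, at 3.93 ± 1.07 (SD, n = 4; log2 difference 0.66, SE 0.18; limma, adjusted p = 0.0263), called in 5 of 9 fits that left out a library. Of these 3 ligands, 1 was thus called higher and 1 lower in IRLacz against IR, where 13.3% of all entries were called (5.39% higher and 7.92% lower). Leaving out a library changed the count of 2 to 1 without IR replicate 1, IR replicate 3, IRLacz replicate 1 or IRLacz replicate 4. It rose to 3 without IR replicate 4. Over all entries, such fits called 606 to 2197.

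Ligand release covers the metalloproteases that cut the precursors free, and the rhomboid proteins that control them. Of 10 genes, 8 were higher and 1 (Timp3, an inhibitor of these proteases) lower in IR against sham, 90% called beside the 75.6% of all entries, with a median of 1.02. Adam17, the main sheddase of Hbegf, Areg and Tgfa, rose from 6.94 ± 0.72 to 14.01 ± 0.80 FPKM (SD, n = 5 each; log2 difference 0.92, SE 0.08; limma, adjusted p = 1.92e-08). Rhbdf1, an inactive rhomboid that carries Adam17 to the surface, rose from 20.46 ± 1.68 to 45.46 ± 4.21 FPKM (SD, n = 5 each; 1.11; limma, adjusted p = 4.29e-09). Adam12, another metalloprotease that can cut Hbegf, went from 0.41 ± 0.09 to 4.40 ± 0.54 FPKM (SD, n = 5 each; 1.94; limma, adjusted p = 9.41e-10).

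In IRLacz against IR, 3 of these 10 genes were lower and none higher, 30% called where 13.3% of all entries were (7.92% lower). Rhbdf1 had 32.33 ± 2.26 FPKM (SD, n = 4; -0.48; limma, adjusted p = 0.00639) and was called in all 9 fits that left out a library. Adam12 (-0.48; limma, adjusted p = 0.033) was called in 5 of the 9, and Adam8 (-0.94; limma, adjusted p = 0.0466), a metalloprotease of leukocytes, in 3. Adam17, at 11.82 ± 1.41 FPKM (SD, n = 4), was not called (-0.23; limma, adjusted p = 0.0793). The count of 3 fell to 1 without IR replicate 2, IR replicate 3 or IRLacz replicate 1, and rose to 5 without IRLacz replicate 4.

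On the deposited scale, adaptors and kinases were called after injury about as often as all entries (75.6%), at 80.0% and 70.6%. Of 15 adaptors, 10 were higher and 2 lower (Gab1 and Eps8) in IR against sham, and under median-ratio scaling 6 and 5. Grb2, which links the receptors to Ras, went from 23.45 ± 0.96 to 36.99 ± 1.91 FPKM (SD, n = 5 each), Shc1 from 16.92 ± 0.61 to 33.34 ± 1.34 and the tyrosine kinase Src from 13.42 ± 0.39 to 24.6 ± 0.91, with limma adjusted p from 1.01e-08 to 4.26e-08. Of 17 kinase-cascade genes, 9 were higher and 3 lower (Braf, Map2k2 and Pik3ca), and under median-ratio scaling 7 and 10. The latter is 100% of that list, where 9558 of 13594 entries were called under the same scaling. Akt1 went from 43.37 ± 3.14 to 92.36 ± 6.15 FPKM, Nras from 6.88 ± 0.19 to 16.67 ± 1.64 and Map2k1 from 23.28 ± 1.35 to 35.69 ± 2.66 (SD, n = 5 each), with limma adjusted p from 1.3e-08 to 8.31e-08.

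Few of these differed between IRLacz and IR: 6.67% of adaptors and 11.8% of kinase-cascade genes were called, where 13.3% of all entries were. The adaptor-list gene Plcg1, a phospholipase recruited by the receptors, was higher (0.32; limma, adjusted p = 0.0339), as was the Raf kinase gene Braf (0.26; limma, adjusted p = 0.0408), and Nras was lower (-0.42; limma, adjusted p = 0.0233). Plcg1 was called in 3, Braf in 2 and Nras in 4 of the 9 fits that left out a library. Without IR replicate 1, 2 or 3, or without IRLacz replicate 2, none of either list was called.

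Feedback inhibitors include Sprouty and Spred proteins, which block Ras signalling, and dual-specificity phosphatases, which switch off MAP kinases. Of 16 tested, 10 were higher and 0 lower in IR against sham, 62.5% called and thus a smaller share than the 75.6% of all entries, with a median of 0.35 beside 0.29 over all entries, and under median-ratio scaling 6 and 3. Dusp5 rose from 0.79 ± 0.21 to 4.96 ± 0.95 FPKM (SD, n = 5 each; 1.73; limma, adjusted p = 1.12e-09), Spry2 from 6.66 ± 0.71 to 12.61 ± 1.2 (0.83; limma, adjusted p = 1.07e-07) and Spred3 from 0.67 ± 0.09 to 3.27 ± 0.34 (1.35; limma, adjusted p = 2.16e-06).

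In IRLacz against IR, 5 of the 16 were lower and none higher: Dusp4, Dusp5, Dusp6, Spry2 and Spred1, each without overlap between the groups. That is 31.2% called, where 13.3% of all entries were (7.92% lower). The share of all entries without overlap was not counted. Dusp5 had 2.24 ± 0.29 FPKM (SD, n = 4; -0.87; limma, adjusted p = 0.00346). Dusp4 had 12.14 ± 0.96 FPKM in IR and 7.08 ± 0.83 in IRLacz (-0.70; limma, adjusted p = 0.00487), and Dusp6, a phosphatase specific for the Erk kinases, had 26.89 ± 4.0 and 17.36 ± 2.3 (-0.60; limma, adjusted p = 0.007; SD, n = 5 and n = 4). Spred1 (-0.45; limma, adjusted p = 0.00984) and the Dusp genes were called in all 9 fits that left out a library, and Spry2 (-0.36; limma, adjusted p = 0.0169) in 7. The count stayed between 4 and 6 in those fits.

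Induced targets are genes known to be switched on by growth factor signalling, though many other stimuli induce them too. Of 15 tested, 14 were higher in IR against sham, 93.3% called beside the 75.6% of all entries, with a median of 1.84, and 13 under median-ratio scaling. Plaur, the urokinase receptor, rose from 2.72 ± 0.42 to 35.44 ± 6.62 FPKM (SD, n = 5 each; 3.28; limma, adjusted p = 4.41e-10). The transcription factor genes Junb (17.13 ± 3.23 to 122.4 ± 22.7 FPKM; limma, adjusted p = 3.42e-09) and Egr2 (0.30 ± 0.26 to 5.86 ± 1.19 FPKM; limma, adjusted p = 5.45e-09) rose as well. Etv5 was not called (6.04 ± 0.43 and 5.27 ± 0.22 FPKM; limma, adjusted p = 0.0716), and under median-ratio scaling it was lower (-0.46; limma, adjusted p = 0.000178).

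In IRLacz against IR all 15 of these differences were below 0 and 11 were called, with a median of -0.67. That is 73.3% called, where 13.3% of all entries were (7.92% lower). The IR libraries are those of IR against sham, so these differences are not independent of the rises after injury. Plaur had 15.82 ± 4.64 FPKM in IRLacz (SD, n = 4; -1.14; limma, adjusted p = 0.00618), Phlda1 went from 18.52 ± 3.94 in IR to 8.54 ± 1.04 (-1.02; limma, adjusted p = 0.00346) and Egr2 had 2.85 ± 1.19 (-0.87; limma, adjusted p = 0.0125). These were the 3 called in all 9 fits that left out a library. Epha2, an ephrin receptor gene (-0.75; limma, adjusted p = 0.0182), was called in 7, and Fosl1, Junb, Ier2, Ier3 and Myc in 4 (limma, adjusted p from 0.025 to 0.0323). The Ets factor genes Etv4 (limma, adjusted p = 0.0494) and Etv5 (limma, adjusted p = 0.0449) were called in 1. The count of 11 was 3 without IR replicate 3, and 4 without IR replicate 1, IR replicate 2, IRLacz replicate 1 or IRLacz replicate 2. Without each of the other libraries in turn it was 9 or 10.

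Markers of macrophages, fibroblasts and injured tubule rose after injury, and most of those of macrophages and fibroblasts were lower in IRLacz than in IR. Summed FPKM of 8 macrophage markers ranged from 84.1 to 114.8 in sham, 1117 to 1594 in IR, 662.6 to 1524 in IRLac and 461.1 to 1051 in IRLacz. All 8 were called higher in IR against sham and 6 lower in IRLacz against IR. Beside these and the next 2 lists, 57% of all entries were higher after injury and 7.92% lower in IRLacz. The 6 fibroblast markers summed to 63.58 to 89.04 in sham, 599.4 to 731.5 in IR, 418.5 to 768.9 in IRLac and 280.1 to 431.4 in IRLacz, with 6 higher after injury and 4 lower in IRLacz. The 9 injured-tubule markers summed to 89 to 108.8 in sham, 1141 to 1702 in IR, 773.6 to 1557 in IRLac and 491.5 to 1534 in IRLacz, with 9 higher after injury and 1 lower in IRLacz. The latter is 11.1% of the list, near the share of all entries, although all 9 differences from IR were below 0 (median -0.56). Hbegf, Areg, Nrg1 and the induced targets are known to be expressed by several of these cell types, and the part of cell number in their differences was not tested. In the other lists no marker was called lower in IRLacz against IR. No endothelium, T and NK cell, B cell or neutrophil marker was called there, and the neutrophil median was 0.68. Of 5 urothelium markers 1 was higher, and of 5 podocyte markers 2 were higher, where 5.39% of all entries were called higher.

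Most nephron markers were lower after injury, where 18.6% of all entries were called lower. In IRLacz against IR, 5.39% of all entries were called higher. Summed FPKM of 6 thick limb markers ranged from 1880 to 2757 in sham, 1080 to 1702 in IR, 865.1 to 2781 in IRLac and 1870 to 3012 in IRLacz, with 4 called lower after injury and 1 higher in IRLacz. The 5 distal convoluted tubule markers summed to 344.9 to 438.9 in sham, 74.65 to 260.8 in IR, 75.45 to 261.7 in IRLac and 221.7 to 412 in IRLacz, with 4 lower and 1 higher after injury and 1 higher in IRLacz. All 8 proximal tubule markers were lower after injury (4104 to 4593 summed FPKM in sham, 1313 to 2086 in IR), and none was called in IRLacz against IR (1127 to 2783). Of 8 collecting duct markers, 5 were lower after injury and 3 higher in IRLacz than in IR. Their summed FPKM overlapped, at 387.2 to 571.7 in sham, 343 to 747 in IR, 333.2 to 907.5 in IRLac and 473 to 1012 in IRLacz. None of these lists had a marker at 0 throughout a group. The part of these shifts in the Egf and Erbb3 differences was not tested.

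IRLacz replicate 1 and IRLac replicate 3 each had the most Egf of their group. Without both, an alternative added after the data were seen, 1626 of the 13594 entries were called in IRLacz against IR, 876 higher and 750 lower, where the fit of all libraries had 733 and 1076. Among them, 1 member was called higher and 2 lower, and 1 pathway gene was higher and 18 lower, 7 of them induced targets and 5 of them feedback inhibitors.

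Over the 14 injured libraries, the 3 entries whose log2 level followed each member most closely were found among 9371 entries with a symbol and a mean of at least 5 FPKM. These correlations are a description, since all points share their libraries and their cell makeup. For Egf they were Slc22a19 (Pearson r = 0.985), Slc4a1 (0.982) and Kyat3 (0.981). For Hbegf they were Wars (0.973), Lrrc32 (0.971) and Rgs16 (0.958). The nearest entry was Bmp6 for Egfr (0.922), Nbr1 for Erbb3 (0.95), Sft2d2 for Erbb4 (0.941), Osr2 for Erbb2 (0.89), Fbxl5 for Tgfa (0.842) and Cyb5r3 for Areg (0.8).
After group means were removed, r for the same pairs was 0.983 for Egf with Slc22a19, 0.916 for Hbegf with Wars, 0.881 for Egfr with Bmp6 and 0.907 for Erbb3 with Nbr1.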

How the data were processed

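The authors deposited 1 table of FPKM values with 2 decimals for 19 kidney libraries. Per the submitters' processing notes, HISAT, StringTie 1.0.4 and mm9 were used, in roles not stated; for the annotation, strand and shared reads, the treatment is not given in the sources. Sample titles gave the groups and replicate numbers. Gene IDs were named through RefSeq (GRCm38.p6, names only; 18238 of 19287 entries matched), which also gave the upstream sequences. The 8 members, the pathway lists and the marker lists were chosen with earlier results of these data known. FPKM does not give depth, so no counting interval is given.

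Differences of log2(FPKM + 1) were tested with limma 3.58.1 in R 4.3.3 (mean-variance trend, all 19 libraries, group as the only term), after testing on simulated data, and adjusted within each comparison by the Benjamini-Hochberg method over 13594 entries. Egf was compared with Umod and Slc12a3 by two-sided exact permutation tests. Besides the 8 members, the genes named are up to 3 of each pathway list with the smallest adjusted p in IR against sham, every pathway gene called between injured groups, and the 3 entries most like each member; the others were named after their values were seen. Alternatives were the pseudocount, filter, scaling (TPM, median-ratio, quantile), 2-group models, library weights, a replicate block, leaving out each library, and, chosen after seeing the data, leaving out IRLac replicate 3 and IRLacz replicate 1.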

Additional observations from a re-analysis of the deposited data

Results flagged for a closer look

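In 40 sets of 4 or 5 libraries of a group, each checked for a library far from the rest, 3 stood apart, and chance gives about 1 in 20. Areg in sham replicate 1 was 0.3 FPKM, where the other sham libraries were between 0 and 0.06. Tgfa in IR replicate 5 was 1.89 FPKM, below the other IR libraries at 2.5 to 2.73. Erbb2 in IR replicate 3 was 20.1 FPKM, below the other IR libraries at 23.37 to 24.3.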

How the results depend on the processing

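Scaling decided the sign of several differences from sham. Under median-ratio scaling Btc in IR against sham was -0.0468, and -0.353 under quantile scaling. Erbb2 was -0.14 and -0.0762, and Erbb4 -0.178 and -0.488, under the same 2 scalings; Tgfa was -0.188 under quantile scaling. In IRLac against sham Egfr was -0.0486 and -0.0391, Erbb4 -0.104 and -0.393, Tgfa -0.01 and -0.295, and Erbb2 -0.0423 (median-ratio). In IRLacz against sham Egfr was -0.23 and -0.229, Tgfa -0.029 and -0.333, Erbb2 -0.0135 (median-ratio) and Erbb4 -0.2 (quantile). Areg in IRLacz against IR was 0.0879 with library weights and 0.113 without IRLac replicate 3 and IRLacz replicate 1, in IRLacz against IRLac -0.0114 under quantile scaling, and Egf in IRLac against IR was -0.129 without those 2 libraries.

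Entries called in IRLacz against IR numbered 2978 with library weights and 885 with only those groups in the model, against 1809. In IRLacz against IRLac, 3 became 167 with weights, 86 without the 2 libraries, 10 under median-ratio and 5 under quantile scaling, 5 without the filter, 1 with a pseudocount of 0.1 or with 2 groups, and 0 with a mean of at least 5 FPKM. In IRLac against IR, 1 became 0 with weights, the mean filter, the block, or without the 2 libraries. Members called were 5 with weights in IRLacz against IR and 4 under median-ratio scaling in IRLac against sham.

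Leaving out 1 library gave 0 to 116 entries in IRLac against IR (116 without IR replicate 5), 606 to 2197 in IRLacz against IR (606 without IR replicate 3) and 1 to 490 in IRLacz against IRLac (490 without IRLac replicate 3), and 0 to 1, 1 to 4 and 0 to 1 called members. Signs turned for Areg (-0.244 to 0.0404 in IRLac against IR, -0.254 to 0.113 in IRLacz against IR, -0.171 to 0.196 in IRLacz against IRLac), Egf in IRLac against IR (-0.129 to 0.891), Erbb2 and Tgfa in IRLacz against IRLac (-0.0469 to 0.0975 and -0.0848 to 0.0349) and Erbb4 in IR against sham (-0.0432 to 0.0543). Egf relative to Slc12a3 and Umod in IRLac against IR ranged from -0.272 to 0.419 and -0.0905 to 0.493, and in IRLacz against sham from -2.21 to -1.61 and -2.49 to -1.94 (exact permutation, adjusted p up to 0.107, fewer libraries).

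With the replicate number as a block, 1574 entries were called in IRLacz against IR, 10108 in IR against sham, 0 in IRLac against IR and 1 in IRLacz against IRLac. What the numbers stand for is not stated, and the correlations cannot settle whether they pair libraries. Over 27 same-numbered pairs, correlations of deviations ran from -0.394 to 0.23, with 6 over 0.1. Of 19 libraries, 3 correlated best with their own number. The cause of these changes was not tested.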
